A study of Mus musculus with 32 samples.

Results

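The 47 genes described here act in mitosis: they encode the cyclins and kinases that start it, the checkpoint and the proteases that time it, and the kinetochore, spindle and cleavage machinery that carries it out. They were chosen by name from the 45706 rows of the deposited table, and all 47 were found and tested in every comparison. Expression was measured by total RNA sequencing in 32 libraries of BV-2 cells, a mouse microglial line immortalised with a retrovirus carrying v-raf and v-myc, so the cells divide without a stimulus. Each of 8 groups held 4 libraries. Cells were transfected with a scramble control oligo or with a mimic, a synthetic double-stranded copy, of miR-146a-5p, of miR-7a-5p or of miR-29a-3p, and each transfection was combined with vehicle (VEH) or with lipopolysaccharide (LPS) at 10 ng/ml for 24 h. LPS is a component of the outer membrane of Gram-negative bacteria that activates microglia. The sample labels place LPS before transfection and the study's methods place it after, so the order is uncertain. All groups come from 1 line, which the labels and the study's methods name BV-2 and describe as a glioblastoma.

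In a dividing cell, cyclin-dependent kinase 1 bound to B-type cyclins starts mitosis, Polo-like and Aurora kinases build the spindle, and the spindle checkpoint holds back the anaphase-promoting complex until every chromosome is attached. The anaphase-promoting complex, activated by CDC20, then releases separase from securin and destroys cyclin B. Most of these genes are transcribed late in the cycle, from promoters that carry a CCAAT box and a cell cycle homology region (CHR), a TTTGAA-like element bound by the DREAM, B-MYB and FOXM1 complexes. Their RNA in a bulk library therefore follows both how many cells are late in the cycle and how much RNA each such cell holds, and these cannot be told apart here.

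The mature sequences of the 3 mimicked microRNAs are shown first, because the mimic comparisons below rest on them. They are printed 5′ to 3′ from RefSeq (GRCm38.p6), with the seed, bases 2 to 8, in capitals, and no seed is shared between them.
miR-7a-5p: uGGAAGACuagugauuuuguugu
miR-29a-3p: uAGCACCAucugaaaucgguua
miR-146a-5p: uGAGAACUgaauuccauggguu
miR-7a-5p is encoded at chr7:78888295-78888317 on the plus strand and at chr13:58392841-58392863 on the minus strand. miR-29a-3p lies at chr6:31062673-31062694 and miR-146a-5p at chr11:43374435-43374456, both on the minus strand. In the longest annotated 3′ UTR of each member, the 7-base match to the miR-146a seed, AGTTCTC, was present in 4 members (Birc5, Ccna2, Cdk1 and Ube2c), which is 8.51% of the 47 against 12.5% of all genes tested in the comparison of miR-146a with scramble under LPS. The miR-29a match, TGGTGCT, was present in 5 members (Aurkb, Ccna2, Cenpf, Mad2l1 and Tpx2; 10.6% against 15.6%), and the miR-7a match, GTCTTCC, in 2 (Nusap1 and Tpx2; 4.26% against 14.003%). The 3′ UTRs of the members had a median length of 603 bases, against 1173 for all genes tested with miR-146a under LPS. A match describes the letters only and does not establish a target.

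The promoters of 4 members are shown because they carry the 2 elements that most of the set shares, and because the fourth, Cenpa, carries them although its LPS values lay below its VEH values with scramble. Each run covers 250 bases before to 50 after the annotated start (RefSeq, GRCm38.p6), read on the gene's own strand. Capitals mark the element TTTGAA, its variant TTCGAA and the box CCAAT on either strand. On the opposite strand the element is read as TTCAAA and the box as ATTGG.
Cdc20 (chr4:118437294-118437593, minus strand): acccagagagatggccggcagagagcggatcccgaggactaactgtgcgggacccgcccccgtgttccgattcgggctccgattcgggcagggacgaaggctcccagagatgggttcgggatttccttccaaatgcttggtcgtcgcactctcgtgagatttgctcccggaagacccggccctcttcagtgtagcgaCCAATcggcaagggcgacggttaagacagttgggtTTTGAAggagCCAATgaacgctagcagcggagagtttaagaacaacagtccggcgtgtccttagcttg
Ccnb2 (chr9:70421505-70421804, minus strand): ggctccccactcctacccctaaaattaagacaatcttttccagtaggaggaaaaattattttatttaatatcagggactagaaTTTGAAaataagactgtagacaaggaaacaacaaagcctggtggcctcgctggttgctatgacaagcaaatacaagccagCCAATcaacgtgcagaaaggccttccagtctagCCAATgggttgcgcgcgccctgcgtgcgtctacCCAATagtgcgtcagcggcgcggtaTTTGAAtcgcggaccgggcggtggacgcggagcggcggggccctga
Top2a (chr11:99024140-99024439, minus strand): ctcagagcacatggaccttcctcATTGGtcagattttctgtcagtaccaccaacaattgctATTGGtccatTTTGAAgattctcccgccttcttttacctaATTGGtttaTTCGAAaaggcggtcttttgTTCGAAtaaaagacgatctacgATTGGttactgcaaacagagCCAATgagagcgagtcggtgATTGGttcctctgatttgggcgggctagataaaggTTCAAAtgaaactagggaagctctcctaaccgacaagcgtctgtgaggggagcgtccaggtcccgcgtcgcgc
Cenpa (chr5:30666636-30666935, plus strand): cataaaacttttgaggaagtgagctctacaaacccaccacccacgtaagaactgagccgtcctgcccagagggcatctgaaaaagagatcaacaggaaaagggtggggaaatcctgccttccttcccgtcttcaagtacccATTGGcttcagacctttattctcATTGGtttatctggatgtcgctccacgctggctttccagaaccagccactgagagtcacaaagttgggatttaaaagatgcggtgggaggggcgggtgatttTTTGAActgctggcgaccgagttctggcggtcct
The promoter table held 39 of the 47 members (Aurkb, Ccna2, Cdca2, Foxm1, Incenp, Kif20a, Spc24 and Tpx2 had no entry). TTTGAA was found in 26 of the 39, or 66.7%, against 20.2% of the 27025 genes in the table. CCAAT was found in 29 members, or 74.4%, against 41.1% of all genes. Both occurred together in 23 members, or 59.0%, against 7.97% of all genes. TTCGAA was found in 3 members (Bub1, Bub1b and Top2a), or 7.69%, against 1.80%. Genes with several listed starts were counted once. These shares describe letters in a 300-base window and not binding.

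The libraries held 1121402 to 20267840 reads assigned to genes. Levels are given as counts scaled to 1000000 per library (CPM) after a trimmed-mean (TMM) correction of the library sizes, and 3 counts corresponded to 0.148 to 2.68 CPM before that correction. VEH libraries held 1121402 to 9413601 reads and LPS libraries 2679181 to 20267840. Structural RNA genes took 32.95 to 36.8% of the counts in replicates 2 to 4 of VEH miR-7a, 4.23% in replicate 1 of that group and 2.96 to 19.5% elsewhere, and their part in the results was not tested beyond leaving those genes out. Among microglial markers, Cd68, Ptprc, Itgam, Tyrobp, Fcer1g and Trem2 were at 95.6 to 1828 CPM in every library, and Aif1 was at 4.07 to 26.6 CPM. Csf1r (0.298 to 1.08 CPM), Cx3cr1 (0 to 6.63), P2ry12 (0.823 to 12.99) and Tmem119 (0 to 7.46), which define microglia in the brain, were low or absent. The 6 astrocyte, 5 neuron and 7 fibroblast and endothelial markers all had medians under 1 CPM, as had 4 of 6 oligodendrocyte markers.

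In vehicle with scramble, the members ran from 1.04 CPM per kb of the longest transcript (Cenpk, a subunit of the inner kinetochore) to 39.2 (Cenpa, the centromeric histone H3 variant), with a median of 8.60 CPM per kb. Under LPS with scramble the median was 21.8 CPM per kb, and the highest level was that of Top2a, DNA topoisomerase IIα, at 97.2. Summed over the 47 members, VEH scramble libraries held 1510.3 to 2279 CPM and LPS scramble libraries 4258 to 5378 CPM. The sums of the other groups were 1876 to 3338 CPM in VEH miR-7a, 1639 to 1947 in VEH miR-29a, 1301 to 1792 in VEH miR-146a, 3784 to 5732 in LPS miR-7a, 2911 to 4996 in LPS miR-29a and 2480.1 to 3922 in LPS miR-146a. Every LPS library thus held a larger sum than every VEH library of the same oligo.

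**Figure D1:**
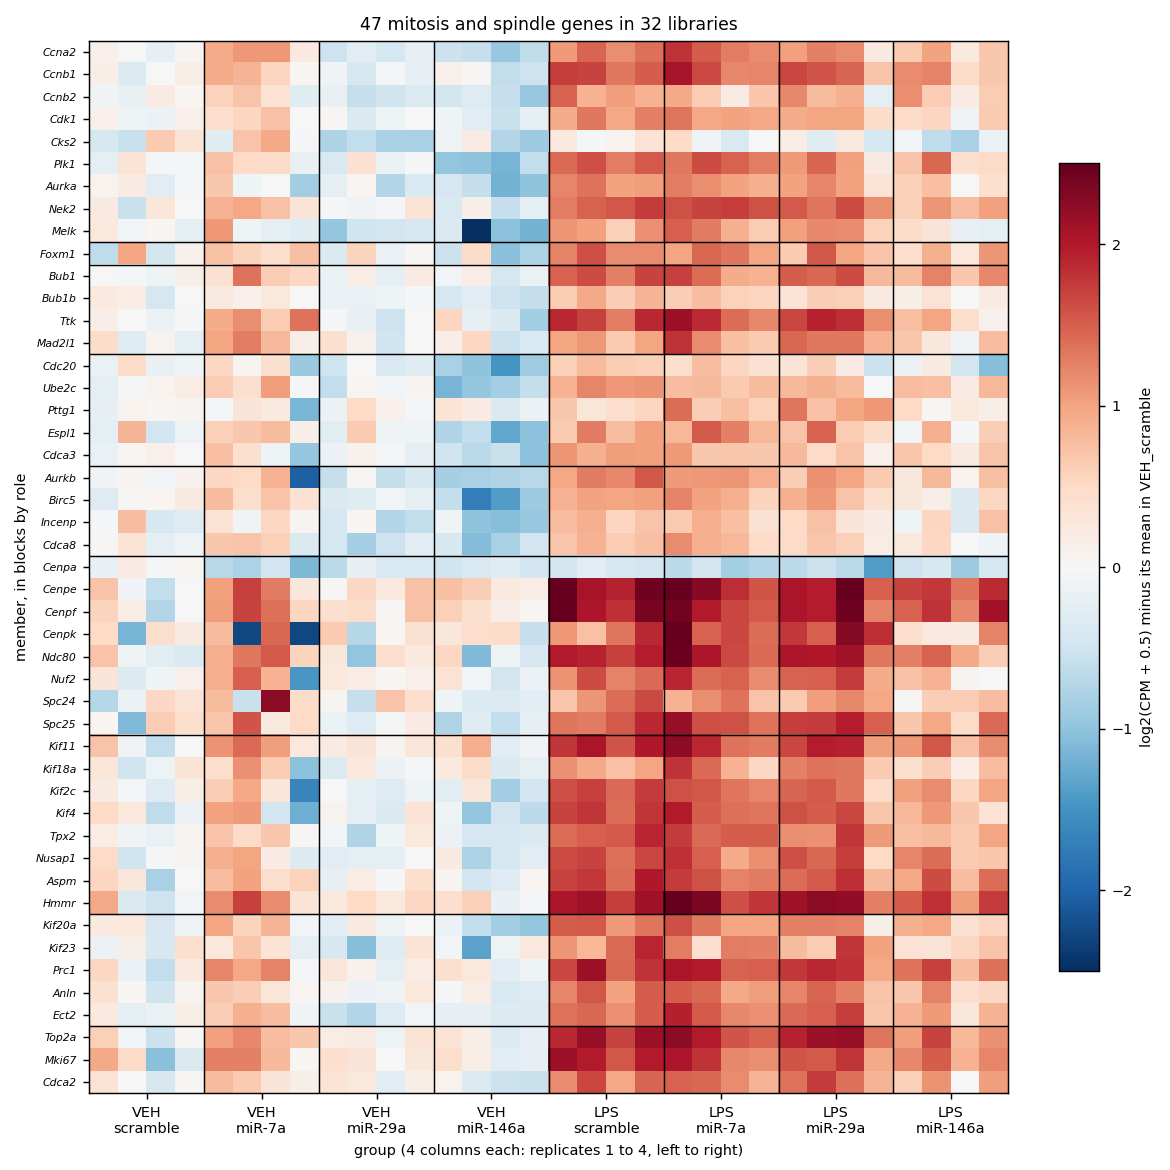
Heat map of the 47 members (rows, in blocks by role) in the 32 libraries (columns, 4 per group, replicates 1 to 4 from left to right); colour is log2(CPM + 0.5) minus the mean of the VEH scramble group. LPS columns are mostly red, those of LPS miR-146a paler, and the Cenpa row is blue throughout most groups.

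LPS was compared with vehicle within each oligo, to ask how activation changes these genes. With scramble, 43 of the 47 members rose at an adjusted p under 0.05 (limma-voom with Benjamini-Hochberg adjustment over 12532 genes) and none fell, while 9.18% of all genes tested rose. The median log2 fold change of the members was 1.38, a 2.60-fold higher level, and that of all genes was 0.01. The 4 LPS libraries lay above the 4 VEH libraries for 43 members, against 11.6% of all genes. They lay below for 1 member, Cenpa, against 11.1% of all genes. Of the members that rose, Espl1 and Incenp had overlapping groups, as did Cks2, which did not pass. The call was not sensitive to single libraries: 39 to 43 members were called when each library was left out in turn, against 8.98 to 21.9% of all genes in either direction.

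The 5 largest rises were those of Cenpe, Cenpf, Hmmr, Top2a (described below) and Ndc80. Cenpe, the kinetochore kinesin CENP-E, rose by 2.25 ± 0.26 (adjusted p = 0.000303) on the log2 scale, from 31.3 ± 12.6 CPM (mean ± SD, n = 4) to 145 ± 30.1 CPM. Cenpf, a large kinetochore and nuclear matrix protein, rose by 2.19 ± 0.25 (adjusted p = 0.000307). Hmmr, which binds spindle microtubules, rose by 1.99 ± 0.27 (adjusted p = 0.000725), and Ndc80, the outer kinetochore subunit that grips microtubules, by 1.95 ± 0.24 (adjusted p = 0.000381). The smallest rise that passed was that of Cdc20, the activator of the anaphase-promoting complex, at 0.70 ± 0.16 (adjusted p = 0.0141).

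All 9 roles took part. Of the 9 mitotic cyclins and kinases 8 rose, with log2 fold changes over the role between 0.16 and 1.58. Ccnb1, cyclin B1, rose by 1.58 ± 0.16 (adjusted p = 0.000146), Cdk1, its kinase, by 1.13 ± 0.15 (adjusted p = 0.000682), and Plk1, the Polo-like kinase of mitotic entry, by 1.51 ± 0.16 (adjusted p = 0.000179). The 4 checkpoint genes rose by 0.78 to 1.72. Of the 5 anaphase genes 4 rose. The 4 genes of the chromosomal passenger complex, which corrects wrong attachments, rose by 0.78 to 1.30, and 6 of the 8 centromere and kinetochore genes rose. All 8 spindle motor and microtubule genes (0.90 to 1.99), all 5 central spindle and cytokinesis genes (1.32 to 1.75) and all 3 chromosome and proliferation genes (1.34 to 1.98) rose.

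4 members did not pass with scramble. Cks2, a small subunit of cyclin-dependent kinases, stood at 16.2, 14.997, 35.3 and 28.4 CPM in VEH and at 26.5, 21.4, 23.7 and 28.9 CPM in LPS, a log2 difference of 0.16 ± 0.25 (adjusted p = 0.694). Pttg1, securin, differed by 0.50 ± 0.18 (adjusted p = 0.0768) and Cenpk by 1.42 ± 0.46 (adjusted p = 0.0564). Cenpa stood at 129.8, 170.5, 143 and 154 CPM in VEH and at 108, 123, 111 and 106 CPM in LPS. All 4 LPS values of Cenpa were below all 4 VEH values, the opposite order to the rest, with a log2 difference of -0.39 ± 0.13 (adjusted p = 0.0668). The replicate numbers pair the libraries here, and with the replicate number as a block Cenpa fell by 0.39 ± 0.11 (adjusted p = 0.0339) and Cenpk rose by 1.45 ± 0.35 (adjusted p = 0.0194). Cenpa also passed as lower with DESeq2 and after removal of GC and length.

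**Figure D2:**
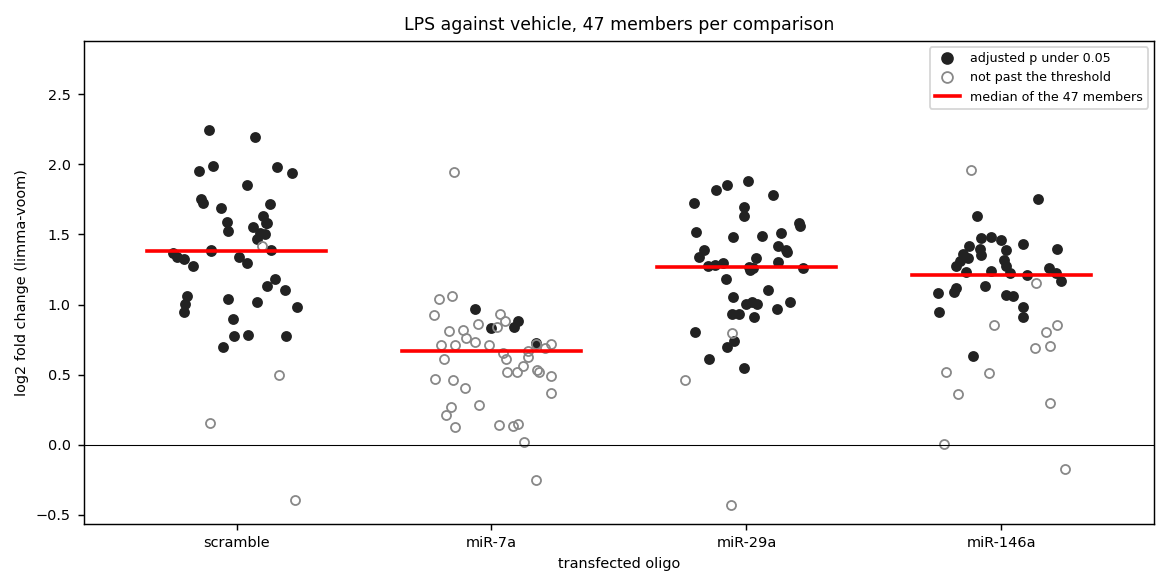
Log2 fold change of LPS against vehicle (limma-voom) for each of the 47 members, by transfected oligo; filled points had an adjusted p under 0.05 and the red bar is the members' median. The median was highest for scramble (1.38), then miR-29a (1.27), miR-146a (1.21) and miR-7a (0.67).

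With the miR-29a mimic 44 members rose under LPS, against 12.5% of all genes tested, with a median of 1.27. Cenpa, Cdc20 and Spc24, a subunit of the NDC80 complex, did not pass, with differences of -0.43, 0.46 and 0.80. With the replicate block Cenpa fell here too, by 0.44 ± 0.15 (adjusted p = 0.0476). Pttg1 (0.93 ± 0.21 (adjusted p = 0.00823)), Cenpk (1.86 ± 0.37 (adjusted p = 0.00405)) and Cks2 (0.69 ± 0.21 (adjusted p = 0.0322)) passed here and had not with scramble without a block. Cenpk did pass with scramble when the replicate block was used. With the miR-146a mimic 34 members rose, against 2.75% of all genes, with a median of 1.21. The count was 22 without VEH miR-146a replicate 3, where 2.09% of all genes passed in either direction, against 4.33% with it. With the miR-7a mimic 5 members rose (Aspm, Nek2, Plk1, Top2a and Tpx2), against 2.69% of all genes, with a median of 0.67. Tpx2, which activates Aurora A on the spindle, rose by 0.97 ± 0.16 (adjusted p = 0.00394) and Nek2, a centrosomal kinase, by 0.83 ± 0.17 (adjusted p = 0.0133). The miR-7a count depended on the method: 9 members passed with edgeR, against 7.77% of all genes in either direction, and 19 with DESeq2, against 10.97% (5 and 6.68% in limma-voom). It fell to 2 without VEH miR-7a replicate 3, against 3.52% of all genes in either direction, and to 3 without replicate 4, against 4.91%. The members' shares of 4.26 and 6.38% were then near those of all genes in either direction. With edgeR and DESeq2 the members' shares were 19.1 and 40.4%. The 4 LPS miR-7a libraries lay above the 4 VEH libraries for 20 members, against 8.17% of all genes, and below for 0, against 6.20%.

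Whether LPS changed the members differently with a mimic than with scramble was tested by the interaction of mimic and LPS over 16 libraries. No member passed for miR-7a, against 0.135% of all genes tested. 26 members had an unadjusted p under 0.05, against 5.71% of all genes, edgeR called 0 members and DESeq2 called 2 (Ube2c at -0.96 ± 0.23, adjusted p = 0.00960, and Cenpf at -1.45 ± 0.39, adjusted p = 0.0304). The median interaction over the members was -0.63, and 44 of 47 were negative. For miR-29a 0 members passed, against 0.0315% of all genes. 0 had an unadjusted p under 0.05, against 6.73% of all genes, edgeR and DESeq2 called 0, and the median was -0.17. For miR-146a 0 members passed, against 0% of all genes. 6 had an unadjusted p under 0.05, against 11.1% of all genes, edgeR and DESeq2 called 0, and the median was -0.29. At the adjusted threshold, limma-voom and edgeR thus showed no member to respond differently to LPS with a mimic than with scramble.

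For each role, the member with the lowest adjusted p in the LPS comparison with miR-29a, the one with the most members called, is given with its level in every library, in the order of replicates 1 to 4. The differences quoted for these 9 members are log2 fold changes ± SE from limma-voom.

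**Figure D3:**
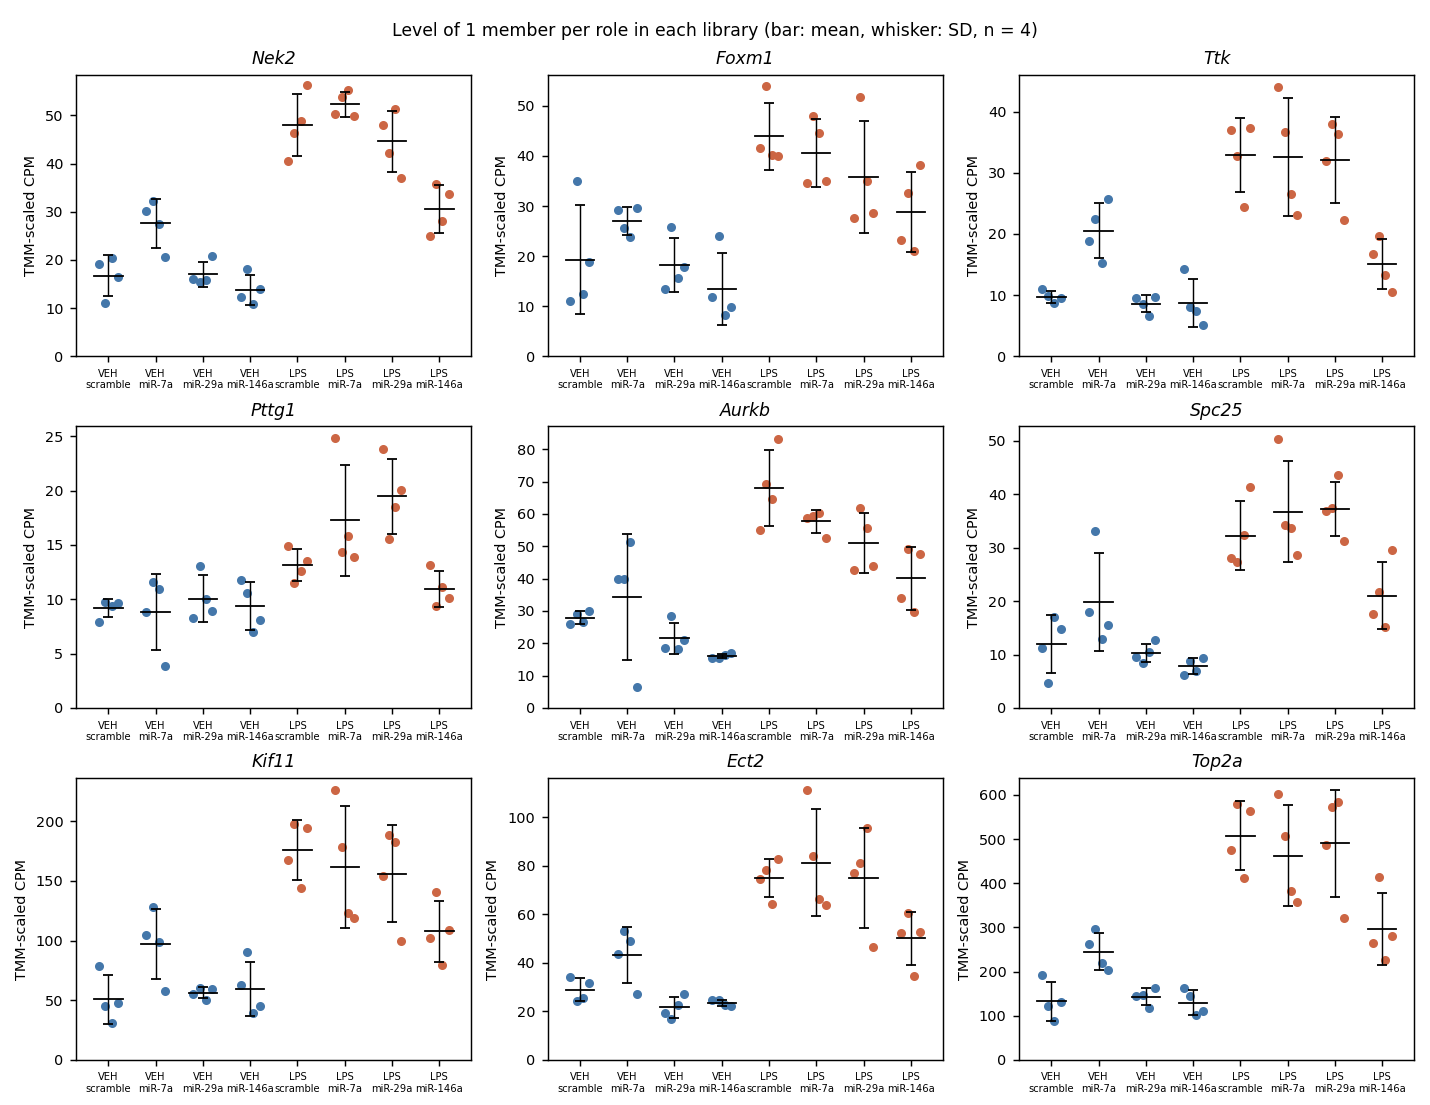
TMM-scaled CPM of 9 members, 1 per role, in each of the 32 libraries; points are libraries, bars are means and whiskers SDs (n = 4), and every axis starts at 0. In each panel the LPS scramble points lie above the VEH scramble points.

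Nek2 (mitotic kinases) separates the centrosomes as mitosis begins. It stood at 19.1, 10.97, 20.4 and 16.5 CPM in VEH scramble and at 40.6, 46.4, 48.9 and 56.2 CPM in LPS scramble. In VEH it was at 15.96, 15.4, 15.7 and 20.9 CPM with miR-29a and in LPS at 47.996, 42.1, 51.4 and 37.1. The groups did not overlap for either oligo, and Nek2 rose by 1.55 ± 0.20 (adjusted p = 0.000476) with scramble and by 1.33 ± 0.18 (adjusted p = 0.000366) with miR-29a. With miR-7a the values were 30.1, 32.3, 27.5 and 20.6 CPM in VEH and 50.4, 53.8, 55.3 and 49.9 in LPS. With miR-146a they were 12.4, 18.1, 10.8 and 13.9 CPM in VEH and 24.9, 35.7, 28.1 and 33.8 in LPS. All 4 LPS miR-146a values were below all 4 LPS scramble values, and Nek2 fell with the mimic by 0.71 ± 0.15 (adjusted p = 0.0388).

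Foxm1 is the forkhead factor that drives transcription of many of the other members. Its VEH scramble values were 11.01, 34.98, 12.5 and 18.8 CPM, and its LPS scramble values were 41.6, 53.9, 40.1 and 40.1 CPM. Replicate 2 was the highest in both groups, and the LPS values all lay above the VEH values (1.39 ± 0.28 (adjusted p = 0.00684)). With miR-29a Foxm1 was at 13.4, 25.8, 15.6 and 17.8 CPM in VEH and 27.6, 51.9, 35.01 and 28.7 in LPS, and with miR-7a at 29.1, 25.7, 23.8 and 29.6 and 34.7, 47.96, 44.6 and 34.96. With miR-146a it was at 11.8, 23.98, 8.17 and 9.896 CPM in VEH and 23.3, 32.6, 20.995 and 38.1 in LPS. Its LPS miR-146a values lay below those of LPS scramble in every library, but the difference of -0.71 ± 0.19 (adjusted p = 0.0776) did not pass.

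Ttk (checkpoint) encodes MPS1, the kinase that starts checkpoint signalling at unattached kinetochores. It was at 11.01, 9.78, 8.66 and 9.501 CPM in VEH scramble and 37.01, 32.7, 24.4 and 37.4 CPM in LPS scramble. The lowest LPS value was more than any VEH value, and the rise was 1.72 ± 0.21 (adjusted p = 0.000365). With miR-29a it went from 9.52, 8.498, 6.603 and 9.68 CPM in VEH to 31.9, 38.003, 36.4 and 22.3 in LPS, a rise of 1.88 ± 0.24 (adjusted p = 0.000264). With miR-7a the VEH values were 18.8, 22.4, 15.3 and 25.7 CPM and the LPS values 44.1, 36.7, 26.5 and 23.04 CPM. These 2 groups overlapped, and all 4 VEH miR-7a values were above all 4 VEH scramble values, a difference of 0.99 ± 0.24 (adjusted p = 0.123) that did not pass. With miR-146a Ttk was at 14.2, 8.096, 7.43 and 5.09 CPM in VEH and 16.8, 19.7, 13.3 and 10.4 CPM in LPS, and it fell under LPS against scramble by 1.05 ± 0.21 (adjusted p = 0.0314).

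Pttg1 (anaphase) encodes securin, the inhibitor of separase. It was at 7.93, 9.78, 9.42 and 9.62 CPM in VEH scramble and 14.9, 11.5, 12.6 and 13.5 CPM in LPS scramble. With miR-29a it was at 8.24, 13.1, 9.99 and 8.96 CPM in VEH and at 23.8, 15.5, 18.5 and 20.1 CPM in LPS. Under LPS all 4 miR-29a values were above all 4 scramble values, a difference of 0.56 ± 0.16 (adjusted p = 0.0761). With miR-7a Pttg1 was at 8.85, 11.6, 10.99 and 3.86 CPM in VEH and 24.9, 14.4, 15.9 and 13.9 in LPS, and with miR-146a at 11.8, 10.6, 7.002 and 8.07 and 13.2, 9.38, 11.1 and 10.2. The miR-146a groups overlapped each other, with an LPS difference of 0.36 ± 0.24 (adjusted p = 0.463).

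Aurkb (chromosomal passenger complex) encodes Aurora B, its kinase. VEH scramble libraries held 26.1, 29.1, 26.5 and 30.03 CPM and LPS scramble libraries 55.2, 69.2, 64.7 and 83.2 CPM. The rise was 1.30 ± 0.16 (adjusted p = 0.0004). With miR-146a the values were 15.5, 15.6, 16.4 and 16.98 CPM in VEH and 34.02, 49.3, 29.6 and 47.5 CPM in LPS. Both groups lay below scramble without overlap, and Aurkb fell by 0.78 ± 0.17 in VEH (adjusted p = 0.0405) and by 0.85 ± 0.18 in LPS (adjusted p = 0.0398). With miR-29a Aurkb was at 18.5, 28.4, 18.3 and 20.9 CPM in VEH and 42.8, 61.7, 55.6 and 43.9 in LPS, and with miR-7a at 40.03, 39.8, 51.3 and 6.43 and 58.9, 59.3, 60.1 and 52.4. VEH miR-7a replicate 4, the shallowest library of all, stood far below the other 3.

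Spc25 (kinetochore) is part of the NDC80 complex. It was at 11.2, 4.74, 17.1 and 14.8 CPM in VEH scramble and 28.1, 27.3, 32.3 and 41.3 in LPS scramble, a rise of 1.51 ± 0.30 (adjusted p = 0.00673). With miR-29a it was at 9.52, 8.498, 10.5 and 12.6 CPM in VEH and 36.8, 37.4, 43.6 and 31.2 in LPS, a rise of 1.78 ± 0.19 (adjusted p = 9.32e-05). All LPS values lay above all VEH values with both oligos. With miR-7a Spc25 was at 17.9, 33.1, 12.8 and 15.4 CPM and 50.4, 34.2, 33.7 and 28.6 CPM, and with miR-146a at 6.19, 8.72, 6.896 and 9.34 and 17.6, 21.7, 15.2 and 29.6. The VEH and LPS values overlapped with miR-7a (0.92 ± 0.29 (adjusted p = 0.0801)) and did not with miR-146a (1.26 ± 0.27 (adjusted p = 0.0187)).

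Kif11 (spindle motors) encodes EG5, the kinesin that pushes the spindle poles apart. It was at 78.98, 45.1, 31.1 and 47.4 CPM in VEH scramble and 167, 198, 144 and 194 in LPS scramble, and it rose by 1.85 ± 0.24 (adjusted p = 0.0006). With miR-29a it was at 55.6, 60.1, 49.9 and 59.1 CPM in VEH and 154, 189, 182 and 99.5 in LPS. With miR-7a it was at 105, 128, 98.9 and 57.9 CPM in VEH and 226, 178, 123 and 119 in LPS. The miR-29a groups did not overlap and the miR-7a groups did. With miR-146a the values were 63.1, 90.2, 39.1 and 45.1 CPM in VEH and 102, 141, 79.6 and 109 in LPS. Under LPS all miR-146a values were below all scramble values, a difference of -0.73 ± 0.17 (adjusted p = 0.0554) that did not pass.

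Ect2 (cytokinesis) activates RhoA at the cleavage furrow. It was at 33.99, 24.3, 25.5 and 31.6 CPM in VEH scramble and 74.4, 78.3, 64.04 and 82.6 in LPS scramble, a rise of 1.37 ± 0.16 (adjusted p = 0.000348). With miR-29a it was at 19.3, 16.995, 22.7 and 27.3 CPM in VEH and 77.02, 81.1, 95.6 and 46.4 in LPS, a rise of 1.70 ± 0.25 (adjusted p = 0.000621). LPS miR-29a replicate 4 was the lowest of its group. With miR-7a Ect2 was at 43.7, 53.04, 48.8 and 27.01 CPM and 111, 83.8, 66.3 and 63.8 CPM, and with miR-146a at 24.8, 24.6, 22.5 and 22.4 and 52.4, 60.5, 34.7 and 52.7. Its VEH and LPS values did not overlap with either mimic.

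Top2a (chromosome structure) untangles sister chromatids. It was at 193, 121, 87.3 and 130.3 CPM in VEH scramble and 476, 579, 411 and 564 in LPS scramble, a rise of 1.98 ± 0.23 (adjusted p = 0.000307). With miR-29a it was at 145.7, 146.4, 117 and 163 CPM in VEH and 485, 572, 583 and 322 in LPS. LPS scramble replicate 1, the shallowest LPS library, was not the lowest of its group. With miR-7a Top2a was at 262, 296, 219.8 and 203 CPM in VEH and 602, 507, 382 and 356 in LPS. With miR-146a it was at 163, 144, 101 and 111 CPM in VEH and 265, 413, 226 and 281 in LPS. All VEH miR-7a values were above all VEH scramble values (0.96 ± 0.23 (adjusted p = 0.125), not passing), and Top2a fell with miR-146a under LPS by 0.79 ± 0.18 (adjusted p = 0.0497).

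Each mimic was then compared with scramble under LPS, and these 3 comparisons share the same 4 scramble libraries. With miR-146a 14 members fell, against 1.39% of all genes tested, and none rose. They were Cdk1 and Nek2 (kinases), Bub1b and Ttk (checkpoint), Cdc20 (anaphase), Aurkb and Birc5 (passenger complex), Ndc80 and Nuf2 (kinetochore), Kif2c, Kif4 and Tpx2 (spindle), and Top2a and Mki67, which encodes the proliferation marker Ki-67. All 47 log2 fold changes were negative, with a median of -0.66, a 0.634-fold level, while the median of all genes was -0.01. At an unadjusted p under 0.05 there were 44 members, against 17.5% of all genes. The 4 mimic libraries lay below the 4 scramble libraries for 28 members, against 5.64% of all genes.

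Ttk had the largest fall that passed, given above. Cdc20 stood at 59.8, 68.9, 61.4 and 59.8 CPM in LPS scramble and at 35.8, 46.2, 28.4 and 18.6 CPM in LPS miR-146a, a fall of 0.95 ± 0.20 (adjusted p = 0.0362). Birc5, survivin, stood at 40.2, 44.1, 43.4 and 44.98 CPM and 26.5, 24.5, 16.9 and 31.3 CPM, a fall of 0.90 ± 0.17 (adjusted p = 0.0249). The groups did not overlap for either gene. Tpx2 stood at 167, 179, 184 and 239 CPM and 106, 111, 100.1 and 125 CPM, and fell by 0.80 ± 0.13 (adjusted p = 0.0175). Kif4, a chromokinesin, fell by 0.89 ± 0.16 (adjusted p = 0.0208). Of the 5 cytokinesis genes and Foxm1, none passed without a replicate block, with differences between -0.92 and -0.48 for the first and -0.71 for Foxm1. Among the first, Anln, the actin-binding scaffold anillin of the cleavage furrow, stood at 99.6, 125, 85.6 and 122 CPM in LPS scramble and 68.6, 101, 57.3 and 61.2 CPM with the mimic, which overlapped (a difference of -0.59 ± 0.19 (adjusted p = 0.134)).

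The count of 14 was not stable. It was 0 without LPS scramble replicate 4 or without LPS miR-146a replicate 1 or 3, 3 without LPS scramble replicate 1, 4 without LPS scramble replicate 2 or 3, 9 without LPS miR-146a replicate 4 and 18 without LPS miR-146a replicate 2. The share of all genes called fell as well, from 2.10% with all libraries to 0.138 to 0.564% where no member passed, 0.946 to 1.24% where 3 or 4 did, and 1.94 and 1.73% for the counts of 9 and 18. All 47 differences stayed negative each time. edgeR called 4 members, against 1.21% of all genes in either direction, and DESeq2 25, against 5.07%. LPS miR-146a replicate 3 was the lowest of its group for 35 members. The 4 members with a miR-146a seed match had a median of -0.70 and the 43 without had -0.66, and 2 and 12 of them passed. In vehicle, described next, the medians were -0.78 and -0.41, and 3 of the 4 (Birc5, Ccna2 and Ube2c) and 4 of the 43 passed. Over all genes with an annotated 3′ UTR the medians with and without a match were 0.02 and -0.01 under LPS and 0.08 and -0.05 in vehicle, so genes with a match were not lower there. These medians were not adjusted for GC or length, which went with the vehicle differences (described below).

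With miR-29a under LPS 0 members passed in limma-voom, against 4.85% of all genes tested. 9 had an unadjusted p under 0.05, against 21.5% of all genes, edgeR called 0 and DESeq2 called 1, Pttg1 (0.57 ± 0.19, adjusted p = 0.0390). The median difference was -0.23, with 37 members negative. The replicate numbers pair the libraries in this comparison, and with the replicate number as a block 2 members passed, 4.26% of the 47 against 9.26% of all genes: Pttg1 rose by 0.55 ± 0.15 (adjusted p = 0.0408), and Cdca3, a trigger of mitotic entry, fell by 0.48 ± 0.13 (adjusted p = 0.0325). Replicate 4 of LPS miR-29a was the lowest of its group for 41 of 47 members. With miR-7a under LPS 0 members passed, against 2.56% of all genes. 3 had an unadjusted p under 0.05, against 17.6% of all genes, edgeR and DESeq2 called 0, and the median was -0.10, with 34 negative. In LPS miR-7a, replicate 1 was the highest for 36 members and replicate 4 the lowest for 32.

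**Figure D4:**
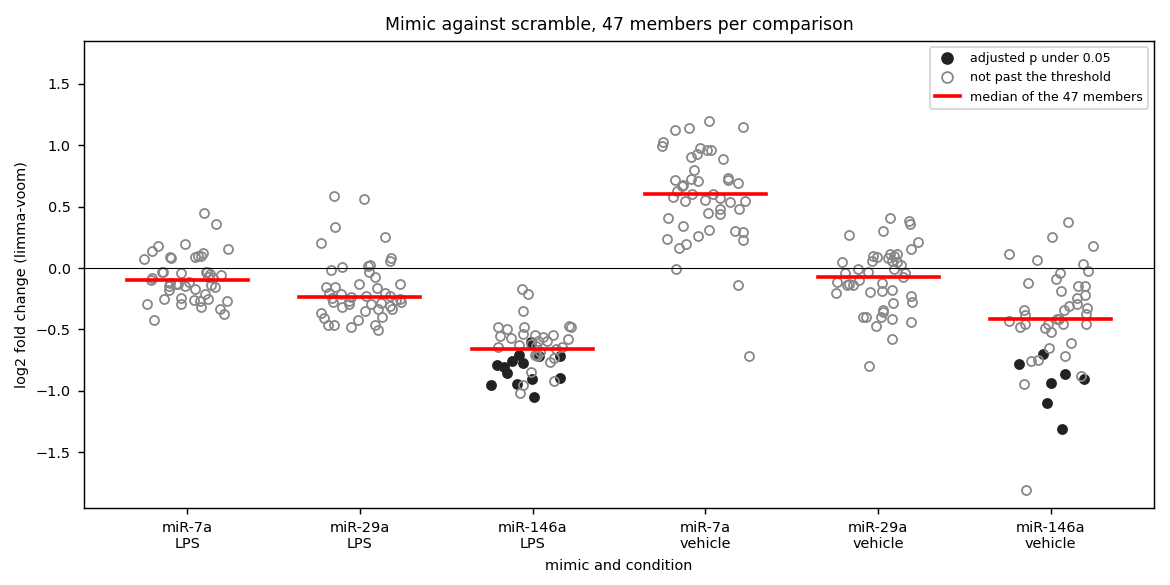
Log2 fold change of each mimic against scramble (limma-voom) for the 47 members, in vehicle and in LPS; filled points had an adjusted p under 0.05 and the red bar is the members' median. With miR-146a under LPS every point is below 0 (median -0.66), and with miR-7a in vehicle 44 of 47 are above 0 with none filled.

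In vehicle the mimics again share 4 scramble libraries. With miR-146a 7 members fell, against 1.22% of all genes tested: Aurka, Plk1 and Ccna2 (cyclin A2) among the kinases and cyclins, Cdc20 and Ube2c, the E2 enzyme of the anaphase-promoting complex, in anaphase, and Aurkb and Birc5 in the passenger complex. The median difference was -0.42, 41 members were negative and 18 had an unadjusted p under 0.05, against 25.3% of all genes. edgeR called 6, against 2.38% of all genes in either direction, and DESeq2 10, against 10.4%. Birc5 stood at 17.3, 22.2, 22.7 and 25.6 CPM in VEH scramble and at 14.2, 6.23, 7.96 and 11.3 CPM in VEH miR-146a, a fall of 1.31 ± 0.25 (adjusted p = 0.0329). Cdc20 stood at 34.96, 54.2, 34.6 and 36.8 CPM and 22.3, 19.3, 13.9 and 21.2 CPM, a fall of 1.10 ± 0.21 (adjusted p = 0.0329). Ube2c stood at 37.1, 42.4, 46.1 and 49.7 CPM and 19.2, 21.95, 23.98 and 28.6 CPM, a fall of 0.86 ± 0.18 (adjusted p = 0.0379). None of these 3 overlapped between groups.

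Aurkb, Birc5 and Cdc20 were called with miR-146a in both conditions. These have no library in common, but their same-numbered scramble libraries deviated together, so the calls are not independent. The largest difference in vehicle was that of Melk, a kinase of dividing cells, at 9.71, 7.71, 8.401 and 6.69 CPM in scramble and 6.19, 0.467, 3.71 and 3.25 CPM with the mimic (-1.81 ± 0.53 (adjusted p = 0.0746), not passing). None of the 8 spindle genes passed, where 3 had under LPS, but the interaction named above did not pass for any member. The count of 7 was 9 without VEH scramble replicate 1, 1 without VEH scramble replicate 2 and 0 without any one of the other 6 libraries. The share of all genes called was 9.91% for the count of 9, 0.754% for the count of 1 and 0 to 0.262% for the counts of 0, against 2.10% with all libraries. The count was 0 after removal of GC and length.

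With miR-7a in vehicle 0 members passed in limma-voom, against 0.274% of all genes tested. 26 of 47 had an unadjusted p under 0.05, against 12.8% of all genes, and edgeR called 0. DESeq2 called 7, against 2.58% of all genes, of which Ccna2 (0.91 ± 0.22, adjusted p = 0.00290), Ttk, Cenpe, Cenpf, Kif11 and Top2a were higher and Cenpa lower (-0.73 ± 0.20, adjusted p = 0.0159). The median difference was 0.60 and 44 members were positive. Relative to the mean of VEH scramble, the median member stood at log2 ratios of 0.71, 0.69, 0.62 and -0.01 in replicates 1 to 4, so replicate 4 differed from the other 3. It had 1121402 reads and was the lowest of its group for 38 members. Without it 1 member passed (0.214% of all genes), and without VEH scramble replicate 1 there were 2 (0.674%). With miR-29a in vehicle 0 members passed, against 0% of all genes. 7 had an unadjusted p under 0.05, against 10.5% of all genes, edgeR and DESeq2 called 0, and the median was -0.08.

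Cenpa lay below its VEH scramble level with every mimic in vehicle. It was at 105, 114, 119.9 and 106 CPM in VEH miR-146a, 93.2, 129, 115 and 115 in VEH miR-29a and 91.5, 85.4, 106 and 68.2 in VEH miR-7a. All 12 of these values were below the lowest VEH scramble value, but no difference passed in limma-voom without a block (-0.41 ± 0.14 (adjusted p = 0.11) for miR-146a, -0.40 ± 0.16 (adjusted p = 0.399) for miR-29a and -0.72 ± 0.18 (adjusted p = 0.13) for miR-7a). Under LPS it was at 104, 112, 79.4 and 109 CPM with miR-146a, 94.05, 102, 93.2 and 56.02 with miR-29a and 94.3, 108, 82.7 and 89.5 with miR-7a. Its LPS differences were -0.17, -0.43 and 0.02 in the cells given miR-146a, miR-29a and miR-7a, and none passed in the fits of 8 libraries without a block. With all 32 libraries in 1 fit the difference with miR-29a passed (-0.40 ± 0.15, adjusted p = 0.0453), and so did that of VEH miR-7a against VEH scramble (-0.69 ± 0.17, adjusted p = 0.0347), which DESeq2 also called. Its scramble libraries are shared by these comparisons.

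The base composition and length of the transcripts moved with some of these differences. The GC content of the longest transcript ran from 37.1 to 56.1% over the members, with a median of 46.3% against 49.3% for all genes tested with scramble, and their median length was 3526 bases against 3152. With miR-146a in vehicle, Pearson's r between log2 fold change and GC was -0.58 over the 47 members and -0.48 over all genes. With log length r was 0.41 over the members and 0.43 over all genes, and the removal below takes out both. The 24 members of lower GC had a median difference of -0.20 and the 23 of higher GC -0.65. With miR-146a under LPS r was -0.02 over the members and -0.07 over all genes. For LPS with scramble it was -0.31 and -0.29, for LPS with miR-29a -0.60 and -0.36, and for miR-29a against scramble under LPS -0.63 and -0.29. These are descriptions across genes, which share libraries and depth and are not replicates. After removal of GC and length, 7 members passed for miR-146a under LPS, against 1.66% of all genes in that fit, with a median of -0.62, all 47 negative and 42 at an unadjusted p under 0.05. There were 0 for miR-146a in vehicle, against 0.142%. These fits used limma-trend, which without the removal called 4 members under LPS (1.07% of all genes) and 6 in vehicle (2.38%). In the paired comparisons the same removal was fitted with the replicate block, and 45 members passed for LPS with scramble (44 higher and Cenpa lower), against 24.4% of all genes, and 46 for LPS with miR-29a (45 higher), against 32.7%. For miR-29a under LPS 5 members passed, against 20.1% of all genes, and for miR-7a under LPS 5, against 18.6%, so that the members' share of 10.6% was below that of all genes in both.

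**Figure D5:**
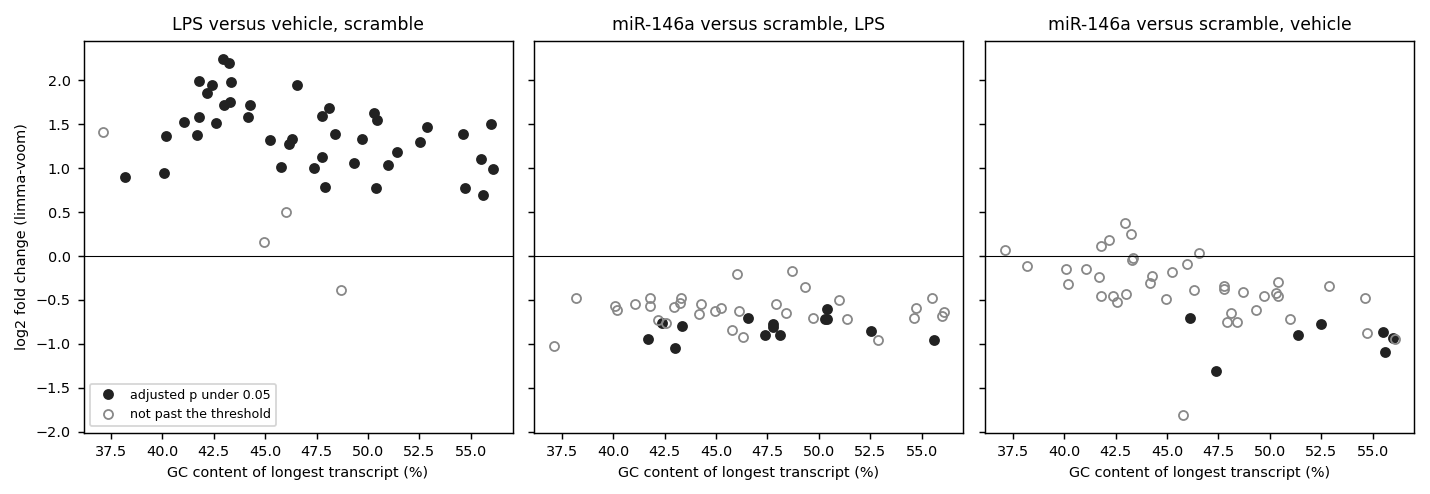
Log2 fold change (limma-voom) of the 47 members against the GC content of their longest transcript, for LPS against vehicle with scramble, and for miR-146a against scramble in LPS and in vehicle; filled points had an adjusted p under 0.05. In vehicle the members of higher GC lie lower (r = -0.58), and under LPS they do not (r = -0.02).

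Other cell cycle genes were counted from 5 lists, to be read against the 9.18% of all genes that rose under LPS with scramble. Of 113 other mitosis genes tested, 67 rose and none fell under LPS with scramble (median 0.89), among them Dlgap5, a spindle protein (1.87 ± 0.17 (adjusted p = 8.72e-05)), Cep55, of the abscission site (1.76 ± 0.17 (adjusted p = 0.000136)), and Smc4, of condensin (1.99 ± 0.24 (adjusted p = 0.000379)). Of 60 DNA replication genes 32 rose and none fell (median 0.66; 13 without VEH scramble replicate 4, 14 without LPS scramble replicate 4 and 18 without VEH scramble replicate 3, and 21 without LPS scramble replicate 2), with Clspn, of the replication checkpoint, at 1.61 ± 0.22 (adjusted p = 0.000743) and Mcm10, a replication initiation factor, at 1.45 ± 0.24 (adjusted p = 0.00239). Of 22 MuvB, DREAM and E2F regulators 8 rose (median 0.37), with Rbl1, the DREAM pocket protein p107, at 1.07 ± 0.18 (adjusted p = 0.00262) and E2f8, an atypical E2F repressor, at 1.09 ± 0.22 (adjusted p = 0.0065). Of 17 anaphase-promoting complex genes 3 rose, with Fbxo5, its inhibitor EMI1, at 1.67 ± 0.23 (adjusted p = 0.000696). Of 25 G1 genes 5 rose and 1 fell, and those that rose included Myc (2.12 ± 0.32 (adjusted p = 0.00142)) and the CDK inhibitor genes Cdkn1a (1.03 ± 0.23 (adjusted p = 0.0122)) and Cdkn2d (1.41 ± 0.29 (adjusted p = 0.00749)). Over the left-out libraries the rises numbered 56 to 68 for the other mitosis genes, 4 to 8 for the regulators, 2 to 3 for the anaphase-promoting complex and 3 to 5 for G1.

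With miR-29a the LPS counts were 73 higher and 1 lower of 113 other mitosis genes, 51 and 0 of 60 replication genes, 8 and 0 of 22 regulators, 4 and 2 of 17 anaphase-promoting complex genes and 6 and 2 of 25 G1 genes, while 12.5% of all genes rose. With miR-146a, where 2.75% of all genes rose, 34 of 113 other mitosis genes rose (11 without VEH miR-146a replicate 3, 19 without replicate 4 and 22 without replicate 2). The other 4 lists were near that share, with 2 replication genes, 0 regulators, 1 anaphase-promoting complex gene and 1 G1 gene higher and 1 anaphase-promoting complex gene lower. With miR-7a, where 2.69% rose, 12 of 112 other mitosis genes rose (5 to 12 over the left-out libraries), and the other lists held 1 replication gene and 1 G1 gene higher and 1 G1 gene lower. These 15 of 236 list genes were 25 with edgeR and 48 with DESeq2, where 6.68, 7.77 and 10.97% of all genes passed in either direction. Against scramble under LPS, 30 of 60 replication genes fell with miR-146a (median -0.85), against 1.39% of all genes, with Mcm6, a helicase subunit, at -1.27 ± 0.14 (adjusted p = 0.00392). Of 113 other mitosis genes 17 fell (median -0.58), with Cenpn, which recognises CENP-A nucleosomes, at -1.09 ± 0.17 (adjusted p = 0.0141), and 3 of 22 regulators fell, with Mybl2, B-MYB, at -0.97 ± 0.17 (adjusted p = 0.0192). Ube2s and Fbxo5 of the anaphase-promoting complex list fell, as did the cyclin D genes Ccnd2 (-0.96 ± 0.16 (adjusted p = 0.0181)) and Ccnd1 (-0.88 ± 0.19 (adjusted p = 0.0377)). The 54 list genes that fell under LPS were 35 with edgeR and 83 with DESeq2. They were 2 without LPS miR-146a replicate 3, 3 without LPS scramble replicate 4, 12 without LPS miR-146a replicate 1, 29 without LPS scramble replicate 1, 32 without LPS scramble replicate 2 and 40 to 64 without any one of the other 3 libraries. In vehicle 5 of 112 other mitosis genes, 3 of 60 replication genes and Ube2s fell with miR-146a, as did Mybl2 (-1.22 ± 0.19 (adjusted p = 0.0216)), against 1.22% of all genes. These 10 were 26 without VEH scramble replicate 1, 4 without VEH scramble replicate 2, 0 to 2 without any one of the other 6 libraries and 4 after removal of GC and length. With edgeR 10 fell, and with DESeq2 32 fell and 2 rose, where 2.38 and 10.4% of all genes passed in either direction.

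With miR-29a under LPS 3 other mitosis genes fell, including Lmnb1, a nuclear lamin (-0.63 ± 0.14 (adjusted p = 0.0334)), and Cdc25b, a phosphatase that activates CDK1 (-0.72 ± 0.18 (adjusted p = 0.0412)). Of the G1 genes Ccng1 and Ccne1 rose and Myc fell (-0.99 ± 0.24 (adjusted p = 0.0387)), and 2 replication genes rose. Over the left-out libraries 0 to 7 other mitosis genes fell, 0 to 2 G1 genes rose and 0 to 1 fell. Of the replication genes 0 to 1 rose and 0 to 1 fell in those fits. With miR-7a under LPS Ccnd1, cyclin D1, rose (0.67 ± 0.14 (adjusted p = 0.0324)) and Btg2, an antiproliferative gene, fell (-1.06 ± 0.24 (adjusted p = 0.0482)), and 0 further genes of the 237 tested passed. Over the left-out libraries 0 to 2 G1 genes rose and 0 fell, so the call of Btg2 was lost each time. Of those 237, 36 had an unadjusted p under 0.05, edgeR called 5 and DESeq2 10, and with the replicate block 4 rose and 9 fell, against 8.57% of all genes with the block and 2.56% without it. For miR-29a under LPS the block gave 6 higher and 8 lower of 238 list genes, against 4 and 4 without it, where 9.26% and 4.85% of all genes passed. In both comparisons the list genes thus passed no more often than all genes in these fits. In vehicle 0 list genes passed in limma-voom with miR-7a (52 of 233 at an unadjusted p under 0.05, 0 with edgeR, 7 with DESeq2) or with miR-29a (20 of 235, 0 with both). The interactions called 0 list genes in limma-voom and edgeR, where 31 (miR-146a), 24 (miR-7a) and 14 (miR-29a) had p under 0.05 before adjustment, and DESeq2 called 1, 2 and 0 of them.

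The counts of some members can hold reads of other genes. In GENCODE M21, 22 members overlap no other annotated gene, 9 overlap a gene on the same strand and 19 a gene on the opposite strand, Cdc20 with Elovl1, Ccna2 with Exosc9 and Ube2c with Tnnc2 among them. Ccnb1, Ccnb2 and Kif4 each have an annotated processed pseudogene, and reads could be split between copies. The strand setting of the counting was not given in the sources used here.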

How the data were processed

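RNA was depleted of ribosomal RNA, made into total RNA libraries and sequenced single-end. Gene-level quantification was done by the authors with nf-core rnaseq on GRCm38, the submitters' processing notes name limma and edgeR, and the quantifier and annotation release were not given in the sources used here. The deposited values are estimated counts per gene whose decimal marks were lost in the text: of 109458 values of 20000 or more, 0.0155% end in 0 and 43.1% end in 001 or 999. The marks were restored by a model that used the final digits and each gene's level in the other libraries, those of its own group included, so the spread within groups may be understated. Of 590874 values above 0, 28.5% were given lost decimals. All 1504 member values were restored with a posterior probability of at least 0.996, and 2 were at 0 (Cenpk in VEH miR-7a). Genes with a value under 0.9 were left out of a comparison.

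Groups came from the labels. Each pair of groups (8 libraries) was filtered with filterByExpr, scaled by TMM and tested with limma-voom (R 4.3.3, limma 3.58.1, edgeR 4.0.16), with Benjamini-Hochberg adjustment over all genes tested and a threshold of 0.05. Interactions used 16 libraries. Restored values entered limma unrounded and were rounded for edgeR's quasi-likelihood test and for DESeq2 1.42.0. The study's additional threshold of 0.3 on the log2 fold change was not applied. The 47 members, their roles and the 5 lists were chosen with earlier results of these data known. All members are named, and values in every library are given for the member with the lowest adjusted p in each role in the comparison with the most members called. List genes are named only where they passed, at most 4 a list and comparison. The values of 1 of the cell type markers checked are not reported here. Lengths, GC, overlaps and 3′ UTRs came from GENCODE M21 and promoters and microRNAs from RefSeq. The steps were tested on simulated data.

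The study describes replicates as independent experiments. Same-numbered libraries deviated together (correlation above 0.1 in all 4 pairs) for LPS against vehicle with scramble (0.125 to 0.234) and with miR-29a (0.162 to 0.229), and under LPS for miR-7a (0.205 to 0.382) and miR-29a (0.223 to 0.403) against scramble. In these comparisons the replicate number was taken to pair the libraries. In the others not every pair passed this value, which does not show that those libraries were unpaired. The depth was 1121402 to 20267840 counts a library.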

Additional observations from a re-analysis of the deposited data

Results flagged for a closer look

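A library lay far from the other 3 of its group for 24 of the 376 combinations of member and group (6.38%). The criterion was a gap to the nearest library of more than 0.829 of the group's range (Dixon's test), which chance passes in about 1 in 20 groups. Values are TMM-scaled CPM.

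Replicate 4 of LPS miR-29a was low for 6 members: Cdk1 at 60.8 against 84.0 to 87.4 in the other 3, Ube2c at 44.0 against 75.6 to 80.8, Ndc80 at 19.9 against 32.4 to 34.5, Kif18a at 21.6 against 33.4 to 35.3, Kif20a at 43.1 against 92.5 to 94.4, and Prc1 at 57.5 against 101.5 to 109. The LPS rise of all 6 passed with this library included. In the same group Tpx2 was high in replicate 3, at 221.

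In LPS miR-7a, replicate 1 was high for Cdk1 (111), Cdca3 (70.5) and Cenpk (14.6). Aurkb was low in its replicate 4 (52.4) and Kif23 in its replicate 2 (24.4). In LPS miR-146a, Ube2c was low in replicate 3 (50.3) and Cenpk high in replicate 4 (5.21). Foxm1 was high in LPS scramble replicate 2 (53.9).

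In the vehicle groups Cdc20 was high in scramble replicate 2 (54.2). Melk was high in miR-7a replicate 1 (17.5) and low in miR-29a replicate 1 (3.86), and Cdca8 was low in miR-7a replicate 4 (18.01). Nek2 (20.9) and Nusap1 (29.3) were high in miR-29a replicate 4 and Espl1 in miR-29a replicate 2 (102). Incenp (42.1) and Tpx2 (56.9) were high in miR-146a replicate 1. The part of depth or handling in these values was not tested.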

How the results depend on the processing

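No log2 fold change of a member that passed changed sign under any alternative run. Of the named ones that did not pass, the LPS difference of Cks2 with scramble (0.16) became -0.032 without VEH scramble replicate 1 and ranged to 0.33 over the left-out libraries. That of Cenpa with miR-7a (0.02) became -0.091 after removal of GC and length, with or without the block, and ranged from -0.042 (without VEH replicate 4; it was also negative, at -0.041, without LPS replicate 2) to 0.11 over the left-out libraries. Of 275 member counts, 224 stayed within 1.5 times the reported count. The rises under LPS with scramble (39 to 43 members when each library was left out) and with miR-29a (39 to 45) held throughout. The corresponding ranges were 22 to 34 for LPS with miR-146a, 2 to 6 with miR-7a, 0 to 18 for miR-146a against scramble under LPS, 0 to 9 in vehicle, 0 to 2 for miR-7a in vehicle, 0 to 1 for miR-29a under LPS, and 0 to 0 for miR-7a under LPS, miR-29a in vehicle and the 3 interactions. Limits are the depth of the vehicle libraries, the restored decimals and the GC relation. The cause of the changes below was not tested.

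Shares in brackets are those of all genes called in the same fit. For LPS with miR-7a, 5 members (6.68%) became 9 with edgeR (7.77%), 19 with DESeq2 (10.97%), 20 with no filter on low counts (30.6%), 13 with all 32 libraries in 1 fit (8.31%), 8 with limma-trend (6.59%), 9 after removal of GC and length (8.78%), and 8 without structural RNA genes (6.905%), an alternative chosen after seeing the data. For miR-146a against scramble under LPS, 14 (2.10%) became 4 with edgeR (1.21%), 25 with DESeq2 (5.07%), 4 with limma-trend (1.07%) and 7 after removal of GC and length (1.66%). In vehicle 7 (2.10%) became 2 with no filter (1.52%), 13 with all 32 libraries (12.7%) and 0 after removal of GC and length (0.142%). For miR-7a in vehicle 0 (0.274%) became 7 with DESeq2 (2.58%) and 4 with all 32 libraries (1.45%), and for miR-29a under LPS 0 (4.85%) became 1 with either (7.78% and 5.15%). The miR-7a interaction went from 0 (0.135%) to 2 with DESeq2 (0.945%).

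With the replicate block, the paired comparison of miR-29a under LPS gave 2 (9.26%), or 5 (20.1%) with GC and length removed as well, and that of miR-7a under LPS 5 (18.6%) with the removal. Besides those named in the report, the block changed no call of a member in the 4 paired comparisons. Elsewhere the criterion for pairing was not met in all 4 pairs of libraries, though they carry the same replicate numbers. There the block gave 32 members (14.5%) for LPS with miR-7a and 20 (14.1%) with the removal. It gave 39 (10.3%), with the 5 cytokinesis genes and Foxm1 among them, and 37 (10.6%) for miR-146a under LPS, 9 (3.19%) and 5 (1.54%) for miR-7a in vehicle, 3 (0.485%) for the miR-7a interaction, and with the removal 3 (2.51%) for miR-146a and 1 (1.71%) for miR-29a in vehicle. All 4 libraries of 1 group correlated best with their own number for LPS with miR-146a and for miR-146a under LPS, 3 did for each mimic in vehicle and 2 for LPS with miR-7a. Of the 4 paired comparisons, 3 did for LPS with scramble and 4 for each of the others.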
